A study of Mus musculus with 6 samples.

Results

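A set of 5 metabolic enzyme genes, each with a probe printed many times over on every array, was followed from resting to interleukin-4 (IL-4) treated mouse microglia. They were Gapdh (NM_008084.2), Hprt (NM_013556.2), Gusb (NM_010368.1), G6pd2 (NM_019468.2) and Gk (NM_008194.3), chosen by the transcript accession that the scanner output gives each spot. They make up 5 of the 59709 features on the array and 100 of its 59994 spots that are neither control spots nor negative probes. A feature here is everything spotted under 1 name, and each of these genes had 1 probe at 20 positions. The array held 15 genes with such replicate spots, of which 14 were bright enough to be tested. The rule that picks them uses function and accession and no measured value, though it was set with earlier results of these data known.

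The cells were primary cultured microglia of C57BL/6 mice, shaken off mixed glial cultures of newborn (P0) cerebrum. The resting group had no stimulus for 24 h and the IL-4 group had 10 ng/ml IL-4 for 24 h, with 3 arrays in each group and no genetic change in either. Total RNA was labelled with Cy3 and hybridized in 1 colour to an array of lncRNA and mRNA probes. The labels do not say whether the 3 samples of a group came from separate cultures or litters. The p-values below therefore rest on the spread between these samples, which may be technical. Those from the fit over all tested features also draw on the spread of other features. The number of arrays limits the precision. In cultures of this kind, fewer cells that express a gene and less of its RNA per cell cannot be told apart. None of the listed markers of microglia, astrocytes, oligodendrocytes, neurons, fibroblasts, endothelium or germ cells was among the features that carry a gene name here, so the cell type in the labels was not checked against markers.

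The genes belong to separate branches of metabolism. Gapdh is the glycolytic dehydrogenase and is widely used as the reference in quantitative PCR, also in this study. G6pd2 encodes a glucose phosphate dehydrogenase, the kind of enzyme that feeds glucose into the pentose phosphate pathway and makes NADPH, and is an intronless copy of the X-linked gene G6pdx, known for its expression in testis. Gk is glycerol kinase, which brings glycerol back into lipid and sugar metabolism. Hprt recycles hypoxanthine and guanine to purine nucleotides, and Gusb is the lysosomal beta-glucuronidase, which trims glycosaminoglycans. Hprt and Gusb are also common PCR reference genes. IL-4 acts through its receptor and the transcription factor STAT6, and in macrophages it is known for a shift in metabolism, which gives the question asked of these genes.

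In the mouse annotation GRCm38.p6, all 5 are protein-coding genes. Gapdh lies at chr6:125161852-125166467, Hprt at chrX:52988078-53021660, Gusb at chr5:129989011-130003049, G6pd2 at chr5:61808843-61810477 and Gk at chrX:85701937-85776819. G6pd2 spans 1635 bases, against 19398 for G6pdx at chrX:74409483-74428880. The probe sequences are not printed, since they were not in the files used here, and the exon that each probe reads is not known.

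The 250 bases before the annotated start are shown for Hprt, Gusb and G6pd2, the genes of the 2 pairs whose groups did not overlap when genes were compared within an array. The sequences are from RefSeq on GRCm38.p6, 5′ to 3′ on the strand of the gene. Capitals mark TTCNNNNGAA, the spacing that STAT6 is known to bind, which reads the same on both strands.
Hprt, chrX:52987828-52988077, plus strand: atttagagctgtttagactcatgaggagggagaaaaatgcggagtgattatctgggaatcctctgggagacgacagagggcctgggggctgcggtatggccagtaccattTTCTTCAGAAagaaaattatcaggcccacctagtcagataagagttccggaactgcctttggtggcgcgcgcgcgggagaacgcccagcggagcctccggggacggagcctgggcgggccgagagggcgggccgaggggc
Gusb, chr5:130003050-130003299, minus strand: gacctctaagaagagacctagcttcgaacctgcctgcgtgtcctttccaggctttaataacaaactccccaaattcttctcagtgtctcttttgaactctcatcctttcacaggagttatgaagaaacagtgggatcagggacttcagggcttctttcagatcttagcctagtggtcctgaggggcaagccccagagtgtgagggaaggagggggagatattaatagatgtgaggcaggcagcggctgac
G6pd2, chr5:61808593-61808842, plus strand: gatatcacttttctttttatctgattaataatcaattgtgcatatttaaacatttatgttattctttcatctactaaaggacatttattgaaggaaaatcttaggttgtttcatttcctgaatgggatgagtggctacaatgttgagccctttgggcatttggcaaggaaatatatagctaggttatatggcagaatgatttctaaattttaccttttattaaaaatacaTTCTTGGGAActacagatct
The motif began 140 bases before the start of Hprt and 20 bases before that of G6pd2. The windows of Gusb and Gk held none. The window given for Gapdh starts from a transcript start inside the gene span printed above and held none either, and the bases upstream of that span were not searched. Of 32851 windows of the same length, 1923 (5.85%) held it. A match describes letters and was not tested as a binding site. The G6pd2 window was poor in G and C, at 30.0%, where the median window had 52.4% and that of G6pdx 61.2%.

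G6pd2 and G6pdx also share sequence at their starts, and whether the G6pd2 probe lies there is not known. Only the stretch around each start was compared, from 250 bases before it to shortly after it, and the rest of the genes was not. In that stretch the longest run common to both is 27 bases long. It starts 10 bases before the annotated start of G6pd2 (chr5:61808833-61808859, plus strand) and at base 16 of the G6pdx transcript (chrX:74428839-74428865, minus strand).
Run shared by G6pd2 and G6pdx: ctacagatctgtgaacgtgtttggcag
Whether the G6pd2 probe also binds G6pdx RNA was not tested, so its signal is read here as that of the probe named G6pd2.

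The signal of a spot is the scanner's processed signal, an intensity that is not yet scaled between arrays. How the software had corrected it for background was not looked at. Spots called outliers by the scanner software were left out. For these genes they were 8 of all Gapdh spots over the 6 arrays, 10 of Gk, 1 of G6pd2 and none of Hprt or Gusb. No spot was saturated. By the scanner's flag all spots were well above background but for 1 of the 20 Gk spots on IL-4 array 3. On IL-4 array 2 the flag was also set for 67.7% of the spots of negative probes, against 0.417% to 11% on the other arrays, so it says little for a dim gene there.

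**Figure D1:**
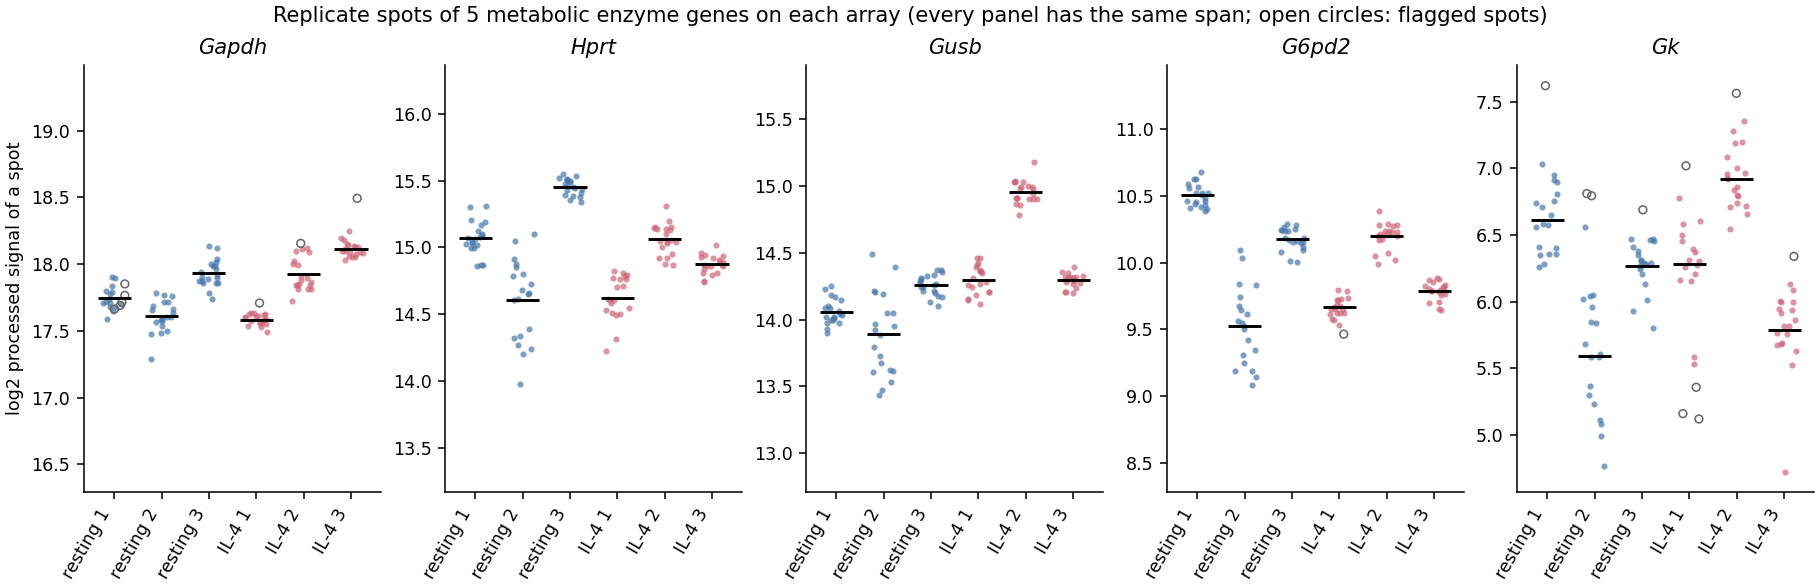
Log2 processed signal of every replicate spot (points) of the 5 genes on each array, with the array mean over the other spots as a black line. Resting arrays are blue, IL-4 arrays red, spots called outliers are open circles, and all panels have the same span. Spots scatter most on resting array 2 for Hprt, Gusb, G6pd2 and Gk. For Hprt, G6pd2 and Gk they span more there (1.13, 1.01 and 1.79 log2 units) than the 6 array means do (0.85, 0.98 and 1.33).

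The SD over the spots of 1 array, pooled over the arrays, was 0.09 log2 units for Gapdh, 0.14 for G6pd2, 0.15 for Gusb, 0.16 for Hprt and 0.30 for Gk. The mean of an array was therefore known to within a standard error of at most 0.03 for Gapdh, 0.07 for Hprt, Gusb and G6pd2, and 0.11 for Gk. Arrays of 1 group differed by far more than that. The SD between arrays was 10.4 times the standard error of the spot mean for Gapdh, 9.30 times for Hprt, 9.06 times for Gusb, 12.8 times for G6pd2 and 7.59 times for Gk. The spots of an array share its RNA, so they fix the level on that array and add no replicate of the treatment. Spots to the left and right of the middle of the array differed most for Gk, by -0.39 to 0.32 on the log2 scale, and for Gusb, by -0.32 to 0.03. For Gapdh, Hprt and G6pd2 the difference stayed between -0.08 and 0.09.

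Gapdh, the glycolytic enzyme, was the steadiest of the 5. Its processed signal was 219677, 199906 and 250130 on resting arrays 1, 2 and 3 and 196438, 248531 and 283439 on IL-4 arrays 1, 2 and 3. The groups overlapped, with the lowest and the highest value both on IL-4 arrays. On the log2 scale Gapdh was 0.11 higher with IL-4 before normalization between arrays and 0.01 lower after quantile normalization, the method of the study. The limma fit over all tested features gave a log2 fold change of -0.01 with a 95% confidence interval of -0.78 to 0.76 and an adjusted p of 0.997. The interval leaves room for a level up to 0.78 lower or 0.76 higher on the log2 scale. Its width draws on the spread of all tested features and not on that of Gapdh alone. In a limma fit where this shared spread followed the signal level, the 95% interval was -0.36 to 0.34. The Gapdh levels after quantile normalization had an SD of 0.05 at rest and 0.07 with IL-4 (n = 3 each).

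Gapdh lay near the top of each array. Between 10 and 38 of the 59994 spots of an array were brighter than its Gapdh mean. Quantile normalization gives every array the same set of values, and how far this holds a gene at the top steady was not tested. The SD of Gapdh over the 6 arrays was 0.06 after quantile normalization and 0.21 before it, in log2 units. By this measure 0.0274% of the tested features varied less after normalization and 0.131% before it. Among the 14 tested genes with replicate spots Gapdh ranked 1 after normalization and 2 before it. B2m, another of them at a like level (17.49 to 17.88 after normalization), had an SD of 0.13 after it and 0.16 before it.

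Hprt, the purine salvage enzyme, had processed signals of 34409, 24886 and 44888 at rest and 25220, 34217 and 30015 with IL-4. The groups overlapped, and resting arrays 2 and 3 were the lowest and highest of all. After quantile normalization its log2 levels were 15.04, 15.17 and 15.30 (15.17 ± 0.13, SD, n = 3) at rest and 15.26, 14.60 and 14.35 (14.74 ± 0.47, SD, n = 3) with IL-4. IL-4 arrays 2 and 3 lay below all resting arrays and IL-4 array 1 among them. The log2 fold change of -0.43 had a standard error of 0.39 and an adjusted p of 0.891 in limma. The fit therefore did not tell this change from no change. Leaving out 1 array moved it to -0.69 (without IL-4 array 1) or -0.24 (without IL-4 array 3). It was negative under every scaling tried, from -0.60 after centring on the 75th percentile to -0.19 as deposited.

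Gusb, the lysosomal glucuronidase, was the gene of the 5 whose deposited signal was higher on every IL-4 array. It read 17080, 15183 and 19597 at rest and 20151, 31842 and 20085 with IL-4. IL-4 arrays 1 and 3 stood just above resting array 3, and IL-4 array 2 well above the rest. The mean difference was 0.45 on the log2 scale, with an exact two-sided permutation p of 0.1, the smallest that 3 arrays against 3 can give. On this scale 2.74% of all tested features were higher on all 3 IL-4 arrays and 0.37% were lower on all 3, and the median change of all tested features was 0.32. After quantile normalization the Gusb levels were 13.96, 14.45 and 14.14 at rest and 14.93, 14.47 and 13.80 with IL-4, and the groups overlapped, with IL-4 array 3 the lowest of all. The log2 fold change was then 0.22 with a standard error of 0.42 and an adjusted p of 0.943 in limma. Without IL-4 array 1 it was -0.05.

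G6pd2, the glucose phosphate dehydrogenase gene, had processed signals of 1453, 738 and 1157 at rest and 812, 1175 and 883 with IL-4. The groups overlapped. After quantile normalization the resting arrays were close together, at 10.11, 10.13 and 10.19 (10.14 ± 0.04, SD, n = 3), and the IL-4 arrays spread wider, at 10.29, 9.78 and 9.43 (9.83 ± 0.43, SD, n = 3). IL-4 array 1 was the highest of all and IL-4 arrays 2 and 3 the lowest. The log2 fold change was -0.31 with a standard error of 0.37 and an adjusted p of 0.903 in limma. When each array was centred on its 75th percentile the IL-4 arrays all lay below the resting arrays, with a difference of -0.59 and an exact permutation p of 0.1. On that scale the groups did not overlap for 8% of tested features, 5.11% with the IL-4 arrays below. Leaving out 1 array moved the quantile normalized value to -0.54 (without IL-4 array 1) or -0.11 (without IL-4 array 3). G6pd2 was lower with IL-4 under every scaling tried, and none of them took it past the limits.

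Gk, glycerol kinase, was the dimmest and least certain. Its processed signal was 97.7, 48.2 and 77.0 at rest and 77.7, 121 and 55.2 with IL-4. The groups overlapped, and IL-4 array 2 was the brightest of all. After quantile normalization Gk read 6.37, 6.37 and 6.46 at rest and 6.70, 4.52 and 6.09 with IL-4, and IL-4 array 2 was now the lowest of all. The log2 fold change of -0.63 had a 95% confidence interval of -2.02 to 0.76 and an adjusted p of 0.891 in limma, and it was 0.17 as deposited. Without IL-4 array 2 it was -0.01, so the value rested on that array.

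**Figure D2:**
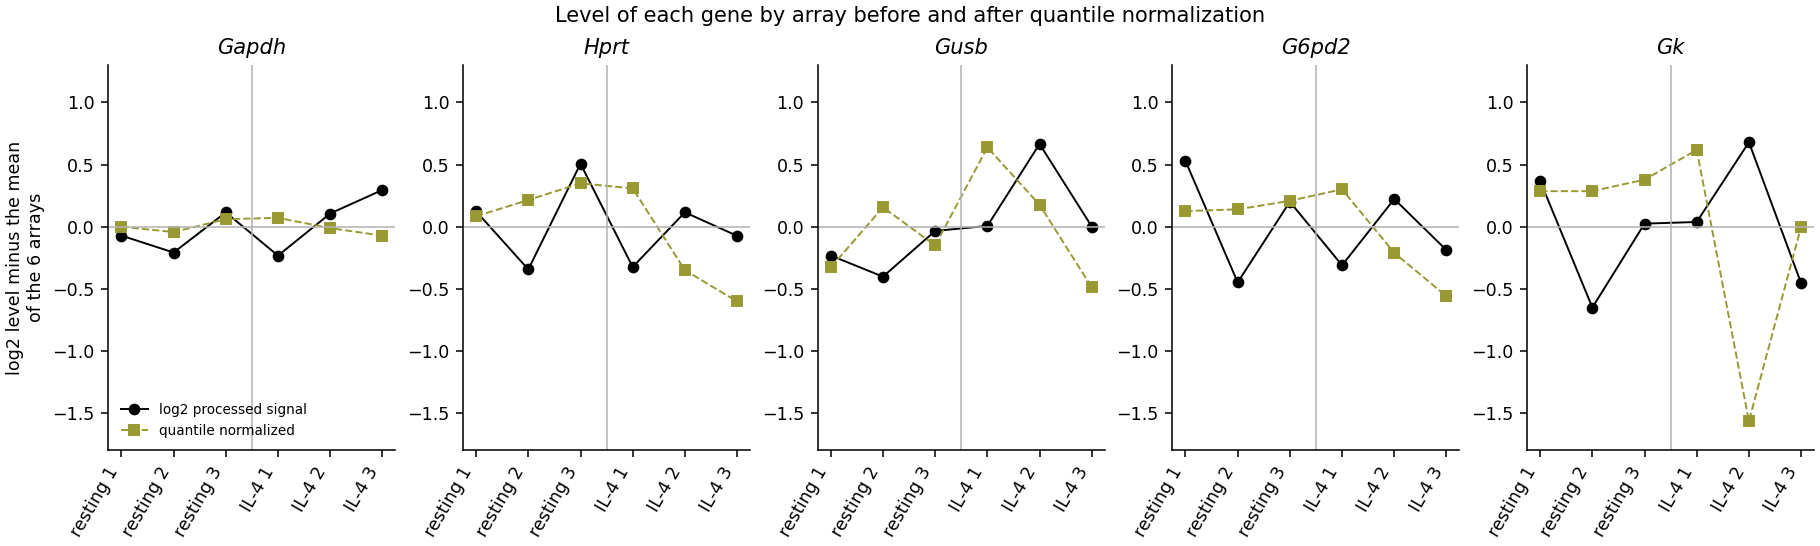
Log2 level of each gene on each array minus its mean over the 6 arrays, as deposited (black circles) and after quantile normalization (olive squares). The vertical line parts resting from IL-4 arrays and the lines only join values of 1 scale. Gapdh lies near 0 on every array after normalization, and Gk on IL-4 array 2 goes from the highest value to the lowest.

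The negative probes, which match no mouse transcript, moved with this. On IL-4 array 2 their median signal was 71.2, where the remaining 5 arrays ran from 2.67 to 7.37. Gk stood 36.1, 9.22 and 28.8 times above them at rest and 16.8, 1.70 and 7.50 times with IL-4, so IL-4 array 2 was the lowest of the 6. G6pd2 stood 16.5 times above them there and 119.9 to 537.2 times elsewhere. Gapdh, Hprt and Gusb were at least 447.0 times above them on every array. When the negative median was subtracted from the deposited signal, the difference between the groups was 0.11 for Gapdh, -0.19 for Hprt, 0.45 for Gusb, -0.22 for G6pd2 and -0.26 for Gk. The sign of Gk changed from that of the deposited signal, and for the other 4 genes the value moved by little. The part of the negative signal in the Gk result beyond this was not tested.

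**Figure D3:**
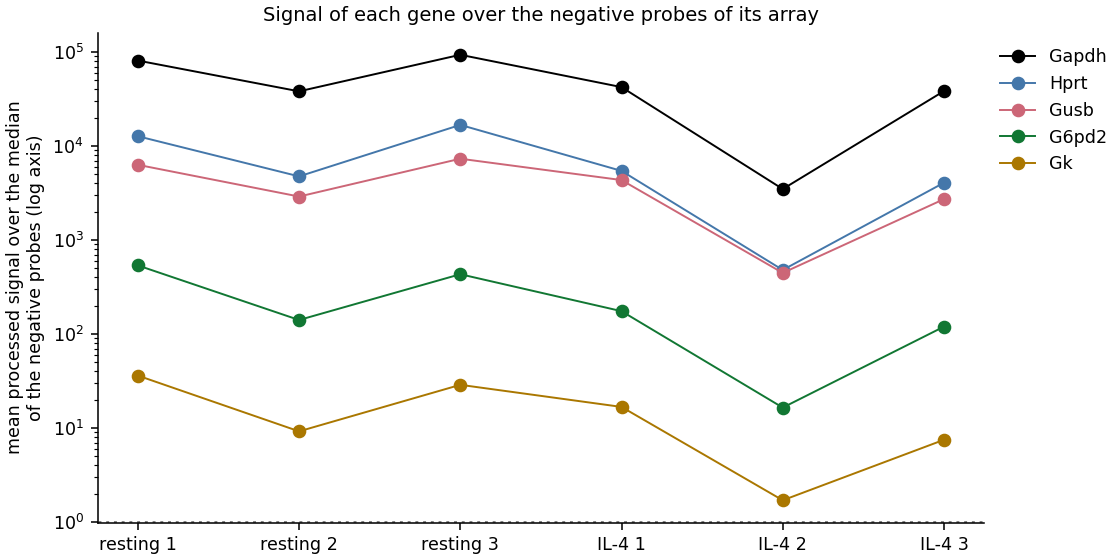
Mean processed signal of each gene divided by the median signal of the negative probes of the same array, on a log axis. The lines only join the values of a gene. All 5 genes stand lowest on IL-4 array 2, where Gk is 1.70 times the negative probes.

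Across the array, 1621 of 32961 tested features (4.92%) passed the limits of the study, a fold change of at least 2 with an unadjusted P of at most 0.05. Of these 366 (1.11%) were higher with IL-4 and 1255 (3.81%) lower. That balance depends on the scaling, with 522 higher and 738 lower after centring on the 75th percentile and 339 higher and 37 lower on the signal as deposited. After quantile normalization 0 features passed with Benjamini-Hochberg adjustment. None of the 5 genes passed (0 of 5), with unadjusted P from 0.302 for Hprt to 0.977 for Gapdh in limma. By the unadjusted P alone 5.22% of features passed and again 0 of the 5. On the quantile normalized scale the groups did not overlap for 10.9% of tested features, 4.67% with the IL-4 arrays above and 6.22% with them below, and for 0 of the 5 genes. With 5 genes, a count of 0 is near each of these backgrounds. The median log2 fold change of the 5 was -0.31, and that of all tested features was -0.14.

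**Figure D4:**
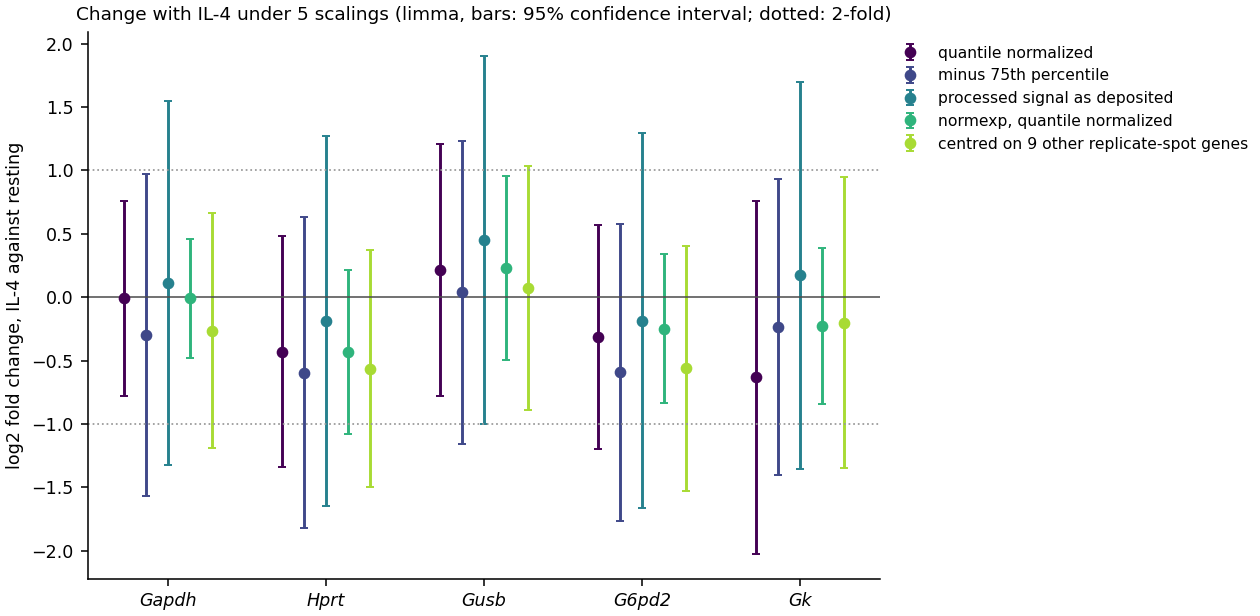
Log2 fold change of IL-4 against resting for the 5 genes under 5 scalings, with 95% confidence intervals from limma and dotted lines at a change of 2-fold. Every interval includes 0, Hprt and G6pd2 are below 0 under all 5 scalings, Gusb is above 0 under all 5, and the sign of Gapdh and Gk depends on the scaling.

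The genes were next compared within each array, as a PCR assay does with its reference gene, since a factor that scales a whole array cancels in such a difference. A difference between probes has no meaning as a ratio of transcripts, because the probes differ, and only its change between the groups was read. There were 10 pairs. The difference between IL-4 and resting arrays was 0.30 for Gapdh minus Hprt, -0.34 for Gapdh minus Gusb and 0.30 for Gapdh minus G6pd2, with exact permutation p of 0.3, 0.4 and 0.5. For Gapdh minus Gk it was -0.06, with an exact permutation p of 0.9. None of the 4 comparisons with Gapdh separated the groups.

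The groups parted in 2 of the 4 pairs with Gusb. Gapdh minus Gusb, given above, overlapped, and so did Gusb minus Gk, with a difference of 0.27 and an exact permutation p of 0.4. Hprt minus Gusb was 1.01, 0.71 and 1.2 at rest and 0.32, 0.10 and 0.58 with IL-4, in log2 units of processed signal. All 3 IL-4 values lay below all 3 resting values. The means were 0.97 ± 0.24 and 0.34 ± 0.24 (SD, n = 3 each), so Hprt relative to Gusb was 1.56-fold lower with IL-4, with an exact permutation p of 0.1 and an adjusted value of 0.5 over the 10 pairs. Leaving out 1 array at a time gave differences of -0.77 to -0.52.

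Gusb minus G6pd2 was 3.56, 4.36 and 4.08 at rest and 4.63, 4.76 and 4.51 with IL-4. All 3 IL-4 values again lay outside the resting range, here above it, and they were closer together (4.63 ± 0.13 against 4.0 ± 0.41, SD, n = 3 each). The difference between the groups was 0.63, or 1.55-fold, with the same exact permutation p of 0.1 and adjusted value of 0.5. Leaving out 1 array at a time gave 0.41 to 0.81. Both pairs share Gusb, so they are not separate observations.

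**Figure D5:**
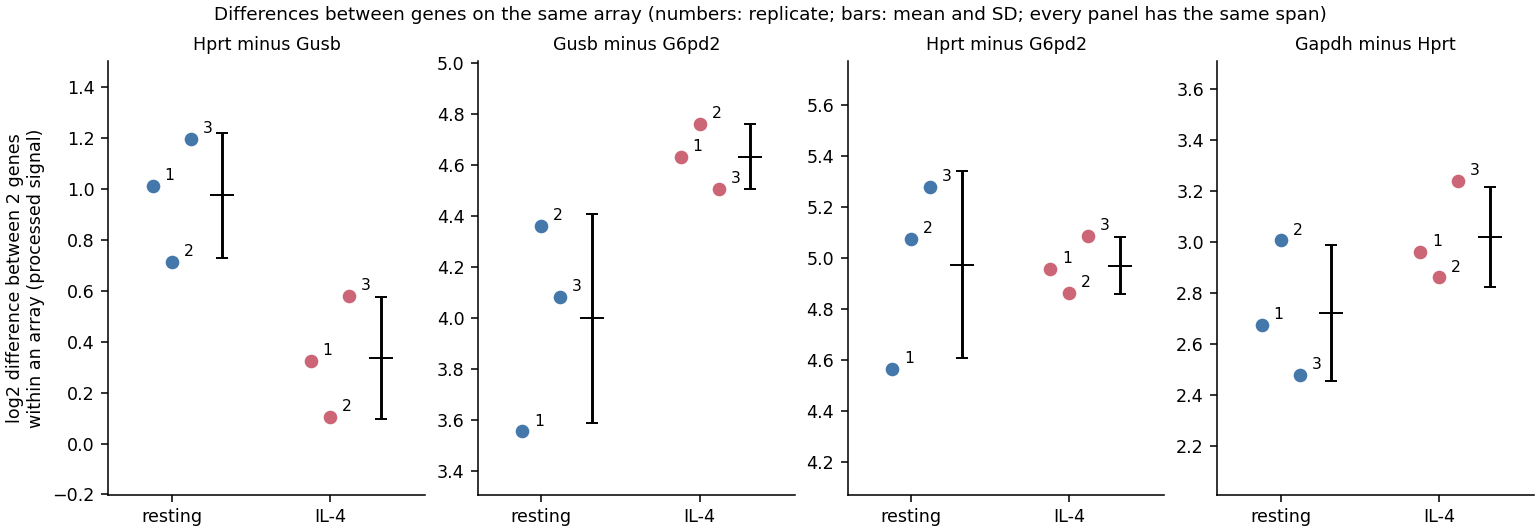
Log2 difference in processed signal between 2 genes on the same array for 4 of the 10 pairs, with the replicate number beside each point and bars for the mean and SD of 3 arrays. All panels have the same span. The groups do not overlap for Hprt minus Gusb and for Gusb minus G6pd2, and they overlap for Hprt minus G6pd2 and Gapdh minus Hprt.

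Groups that do not overlap were found in 2 of the 10 pairs. Among the 91 pairs of all 14 tested genes with replicate spots this held for 14 (15.4%), and among the differences between 1 of the 5 genes and any other tested feature it held for 7.51%. The share among the 5 is near the first of these. Hprt minus G6pd2, by contrast, was 4.57, 5.08 and 5.28 at rest and 4.96, 4.86 and 5.09 with IL-4, a difference between the groups of -0.00 with an exact permutation p of 1.0. The IL-4 values lay within the resting range.

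Among the 5 genes, Hprt and G6pd2 also had the most similar patterns over the arrays on quantile normalized values. After quantile normalization their levels over the 6 arrays had a Pearson r of 0.98, the highest for either gene among the tested features that carry an mRNA accession, and of 0.77 before normalization. The next most similar to each was Vmn1r241, a vomeronasal receptor gene, with r of 0.96 for Hprt and 0.94 for G6pd2. The features most like Gusb were Gm21953 (0.96) and Nono (0.90), an RNA-binding protein of nuclear paraspeckles. Those most like Gk were Nlrp4g (0.99) and Vmn1r157 (0.98), and those most like Gapdh were Vmn1r257 and NM_011667, which has no gene name here, each at 0.86. These values describe 6 arrays that share their normalization. Before it, r was -0.00077 and 0.19 for the features most like Gapdh, 0.69 and 0.67 for those of Gusb, and 0.91 and 0.75 for those of Gk. Vmn1r241 then had an r of 0.20 with Hprt and 0.29 with G6pd2.

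The pathways around the 5 genes could not be followed. Of 21 glycolysis genes, 9 of the pentose phosphate pathway, 7 of purine salvage, 13 lysosomal glycosidases and 12 of glycerol metabolism, the named features held 1 from each list, the gene already described. Of 16 common reference genes 7 were named and tested, with 0 past the limits in either direction and a median log2 fold change of 0.02. The 9 other tested genes with replicate spots ranged from -0.16 for Tbp, the TATA-binding protein, to 0.88 for Tfrc, the transferrin receptor. The ribosomal protein gene Rpl13a was at 0.76. Centred on these 9 genes, Hprt was lower on all 3 IL-4 arrays, by 0.57 on the log2 scale, with an exact permutation p of 0.1. On that scale, added after the data were seen, the groups did not overlap for 6.87% of tested features, 4.77% with the IL-4 arrays below. The difference was -0.56 for G6pd2, -0.26 for Gapdh, -0.20 for Gk and 0.07 for Gusb. Such centring shifts all features of an array alike. On the signal as deposited the difference was -0.19 for Hprt, -0.19 for G6pd2, 0.11 for Gapdh, 0.17 for Gk and 0.45 for Gusb.

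The arrays were not all scanned together. By the scan identifier in the file headers, the 3 resting arrays and IL-4 array 2 share a scan, and IL-4 arrays 1 and 3 have a scan each. With scan as a block in limma, the comparison comes down to IL-4 array 2 against the resting arrays of its own scan. It gave log2 fold changes of -0.02 for Gapdh, -0.57 for Hprt, 0.28 for Gusb and -0.37 for G6pd2. For Gk it gave -1.88, with an unadjusted P of 0.00538 and an adjusted p of 0.0632 in limma, on the array where Gk stood 1.70 times above the negative probes. In that fit 8859 features (26.9%) passed the limits. With a lone IL-4 array, which is assumed to vary like the resting arrays, the P takes in no spread between IL-4 samples, so it is no test of the treatment.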

How the data were processed

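RNA of 3 resting and 3 IL-4 treated microglia samples was measured on 1-colour arrays, and the titles of the samples gave the group and replicate number. The authors deposited Agilent Feature Extraction output (version 10.7.3.1) for each array, in which the processed signal of a spot is an intensity after subtraction of local background. A second deposited table gives log2 values of 14055 probes. It held 0 of the 5 genes and was not used here. Log2 processed signals of 59994 spots were quantile normalized, outlier spots were left out and the others averaged by feature. Tested features had most unflagged spots well above background on 3 or more arrays and a value on 2 or more arrays of both groups. The model in limma (version 3.58.1, run in R 4.3.3) held the condition alone. The limits of the study's methods, a fold change of 2 or more together with P of 0.05 or less, made a call. Single genes and pairs of genes were tested with exact two-sided permutation tests over the 6 arrays (scipy, version 1.17.1). Matplotlib (version 3.10.9) drew the figures. The fit was tested on simulated data. The genes, lists and tests were chosen with earlier results of these data known. Of 123 features that carry a RefSeq accession, 116 could be named. By the rule for named genes, the text gives the 5 genes, list members with an accession, and the 2 features with an mRNA accession most like each gene by Pearson r. Alternatives covered scaling, background correction, filters, flags, spot summaries, test, blocks and each array left out. Centring on the other genes with replicate spots and subtraction of the negative median were added after the data were seen.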

Additional observations from a re-analysis of the deposited data

How the results depend on the processing

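No setting took Gapdh, Hprt, Gusb or G6pd2 past the limits, and 1 took Gk past them. The log2 fold change of Gapdh was 0.0039 with outlier spots kept, 0.0083 with the median over spots, 0.013 with the spots on the left, and 0.11 both without normalization and after subtraction of the negative median. Leaving out 1 array at a time gave -0.047 to 0.024 for Gapdh, -0.69 to -0.24 for Hprt, -0.048 to 0.52 for Gusb, -0.54 to -0.11 for G6pd2 and -1.10 to -0.0079 for Gk. Gk was 0.17 without normalization and -1.88 with scan as a block. Of the pairs, Gapdh minus Gk differed between the groups by 0.62 on quantile normalized values, 0.036 with outlier spots kept, 0.38 after subtraction of the negative median and -0.45 to 0.21 with 1 array left out. Hprt minus G6pd2 differed by 0.027 after that subtraction and by -0.21 to 0.15 with 1 array left out. On quantile normalized values and after the subtraction, Hprt minus Gk differed by 0.20 and 0.073, and G6pd2 minus Gk by 0.32 and 0.047. The causes were not tested.

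The 1621 features past the limits became 267 with normexp background correction on the median signal, 476 with a filter on all 6 arrays, 3108 with no filter, 829 by the methods' t-test, 8859 with scan as a block, and 660 to 3787 with 1 array left out (829, 1028 and 660 without resting arrays 1, 2 and 3, and 3787, 1214 and 3111 without IL-4 arrays 1, 2 and 3). The filters differ in how many features they test, and the cause of the other differences was not tested. Same-numbered arrays did not deviate together (correlations of -0.22, 0.14 and -0.09), so the numbers were not taken as pairs. With the replicate block 1606 features passed, and the 5 genes kept their log2 fold changes, with limma P of 0.981 for Gapdh, 0.387 for Hprt, 0.663 for Gusb, 0.502 for G6pd2 and 0.314 for Gk. The authors' table could not be tried, since it held 0 of the 5 genes. Signal over the negative probes limits Gk on IL-4 array 2.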
